A study of Zea mays with 16 samples.

Results

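The roots of V-372, a maize inbred line labelled as susceptible to waterlogging, were compared after severe waterlogging with roots of the same line before the stress. The comparison takes the 2 V-372 severe stress arrays, from day 35 after sowing, against the 2 V-372 control arrays, from day 28. These are 4 of the 16 arrays of the series. All 17621 probe sets of the Affymetrix GeneChip Maize Genome Array entered it, out of 17734, and only the 113 control probe sets of the manufacturer were left out. The severe stress plants had stood in sealed pots under 5 cm of water, for 7 days as the labels state it, and the control plants came from pots watered to the capacity of the soil. The labels name no transgene, mutant or chemical treatment for any group.

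Waterlogging cuts off the supply of oxygen to roots. Cells without oxygen cannot run mitochondrial respiration, and plants then draw energy from glycolysis and from fermentation, in which pyruvate decarboxylase and alcohol dehydrogenase turn pyruvate into ethanol and regenerate NAD+. Ethylene gathers in flooded tissue, and maize roots can form gas spaces by the death of cortical cells. Leaf cells of maize carry a further set of genes that roots use little, those of the light harvesting complexes, the photosystems, the Calvin cycle and the C4 cycle, by which maize concentrates carbon dioxide around Rubisco.

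The series set V-372 beside HKI1105, a line labelled as tolerant, and sampled roots of both lines as control (day 28), at moderate stress (day 32), at severe stress (day 35) and on recovery (day 42), with 2 arrays per group. According to the labels the 2 arrays are biological replicates, while the methods describe technical ones, so p-values measure the spread between arrays and nothing beyond it. Pots were sealed on day 29 by the labels and on day 28 by the text of the study, and day 35 is 7 days later only by the text. Unstressed roots were sampled on day 28 alone, and the waterlogging and the 7 days of growth from day 28 to day 35 therefore cannot be told apart in any value below. In RNA from samples of root tissue, fewer cells of a type and less RNA per cell cannot be told apart either.

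Values are the log2 levels deposited by the authors, made with GCRMA, which corrects for background, scales the arrays to each other and joins the probes of a probe set into 1 value. The correction leaves a floor at 2.01. Between 26.8% and 27.2% of probe sets lay within 0.1 of the floor on the 2 severe stress arrays, and 27.7% to 27.8% on the 2 control arrays. The median levels were 7.15 and 7.18 on the severe stress arrays and 7.13 and 7.16 on the control arrays. A change measured from the floor depends on where the floor lies, so levels are given beside it. Arrays of a group correlated at 0.998 over probe sets in the severe stress group and 0.999 in the control group. The 2 HKI1105 control arrays stood apart from the other 14, as described with the comparison of the lines. A linear model with 1 mean per group was fitted to all 16 arrays with limma. The words rose and fell are used where the p adjusted by Benjamini-Hochberg, across the 17621 probe sets together, was under 0.05. The words up and down are used at an unadjusted p of 0.001 or less with a change of at least 5 times. The sign ± is followed by the standard error of a log2 change between groups of 2 arrays.

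The V-372 severe stress arrays lay widely apart from the V-372 control arrays. In limma, 1025 probe sets were called up (5.82% of all) and 566 down (3.21%). Without the fold threshold, 3102 were higher (17.6%) and 5625 lower (31.9%) at an adjusted p under 0.05. Rises were larger than falls: 396 probe sets rose 32 times or more and 42 fell as far, and the median change among the calls was 4.36 log2 units for those up and -3.03 for those down. Of the 1025 called up, 193 had a control mean within 0.1 of the floor, and 655 had both means more than 1 log2 unit above it. On both severe stress arrays, 891 of the 1025 exceeded every one of the other 14 arrays of the series (86.9%), and 272 of the 566 called down lay below all of those 14 (48.1%). The V-372 control arrays are among the 14, so part of these counts follows from the calls. The share over all probe sets was not counted. For 37 of the probe sets called up, all of the other 14 arrays were within 0.1 of the floor.

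Genes could be named for 1452 probe sets. Among these, 123 were called up (8.47%) and 72 down (4.96%), and 273 were higher (18.8%) and 528 lower (36.4%) at an adjusted p under 0.05. The annotated genes were sorted into 5 lists of leaf-type genes and 38 lists of other genes, called root lists here, and the leaf-type lists are kept apart. Counts of risen and fallen probe sets in a list are to be read beside the shares over all probe sets.

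Leaf-type genes were the most raised group on the severe stress arrays, although the labels give the tissue as root. Of their 40 probe sets, from 29 genes, 34 rose, 1 fell and 5 did not pass the test, and all 34 were also called up. The median change over the 40 was 7.45 log2 units, beside 0 over all probe sets. The log2 of the summed level of the 40 probe sets was 17.98 and 17.97 on the severe stress arrays, against 12.04 and 12.04 on the control arrays. On the severe stress arrays 30 and 31 of the 40 had a level over 10, and on the control arrays 1.

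Among the light harvesting proteins, which bind chlorophyll and pass light energy to the photosystems, Lhcb5-2 had levels of 12.50 and 12.50 on the severe stress arrays, against 2.14 and 3.12 on the control arrays, a change of 9.87 ± 0.25 (limma, adjusted p = 2.72e-09). Cab-m7, a chlorophyll a/b-binding protein, had 12.47 and 12.47 against 3.24 and 3.07, and lhcb5 13.26 and 13.23 against 4.44 and 4.64. Each of these was called up, so the lack of overlap between severe stress and control arrays follows from the call. Of the 4 probe sets for lhcb6, 1 rose by 3.69 ± 0.06, and the other 3 lay at levels of 2.01 to 2.55 in the severe stress group and 2.01 to 2.08 in the control group, so that the probe sets of this gene disagree.

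The photosystem list had a median change of 8.43, and the light harvesting list one of 3.69. psaN and psaH encode subunits of photosystem I. The levels of psaN were 13.54 and 13.37 on the severe stress arrays, against 2.02 and 2.02 on the control arrays, which lie at the floor (11.43 ± 0.17, adjusted p = 1.1e-10). Those of psaH were 13.60 and 13.67 against 2.86 and 2.43 (10.99 ± 0.12, adjusted p = 1.99e-11). psbs1, which acts in the harmless release of excess light energy at photosystem II, had 13.01 and 13.20 against 2.53 and 2.42 (10.63 ± 0.16, adjusted p = 1.18e-10). PSBQ1, of the oxygen-evolving complex, had 11.79 and 11.74 against 2.35 and 2.29. The electron carriers rose as well. fdx2, a ferredoxin, had 10.73 and 10.14 against 2.01 and 2.01, and pgr5, of cyclic electron flow, 12.09 and 11.95 against 2.54 and 2.20 (9.65 ± 0.39, adjusted p = 5.66e-08). A thioredoxin gene, trm1, had 13.70 and 13.66 against 4.0 and 3.56 (9.90 ± 0.30, adjusted p = 8.54e-09). In this list 12 of 13 probe sets rose and the remaining one, of ftr1, stayed at the floor in both groups, while the other probe set of ftr1 rose by 4.98 ± 0.11.

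All 8 probe sets of the Rubisco and Calvin cycle list rose, with a median of 8.63. gpa1, the plastid glyceraldehyde-3-phosphate dehydrogenase A, had 13.10 and 13.05 on the severe stress arrays, against 2.01 and 2.01 on the control arrays (11.07 ± 0.17, adjusted p = 1.09e-10). bsd2, needed for the assembly of Rubisco, had 11.81 and 11.81 against 2.04 and 2.01 (9.79 ± 0.24, adjusted p = 2.45e-09). rca1, Rubisco activase, stood at 11.56 and 11.64 against 2.01 and 2.01, and ssu1, the small subunit of Rubisco, at 12.43 and 12.38 against 4.99 and 5.25. The control arrays held ssu1 above the floor and gpa1, bsd2 and rca1 at it.

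In the C4 cycle 8 of 10 probe sets rose and 1 fell. pep1, the phosphoenolpyruvate carboxylase of the leaf mesophyll, had 11.08 and 11.24 on the severe stress arrays, against 3.05 and 2.41 on the control arrays, and me3, a chloroplast NADP-malic enzyme of the bundle sheath, 12.56 and 12.95 against 3.96 and 3.97. The regulatory protein pdrp1, which switches pyruvate phosphate dikinase, had 12.34 and 12.55 against 3.21 and 3.75. mdh6, NADP-malate dehydrogenase, rose by 6.47 ± 0.24 and PPCK1, the kinase of phosphoenolpyruvate carboxylase, by 6.35 ± 0.09. The dikinase gene pdk1 has 5 probe sets, of which 3 rose by 4.52 to 6.02, 1 lay at the floor and 1 fell by 0.63 ± 0.21 (adjusted p = 0.0322). The 2 probe sets for chlorophyll synthesis both rose: oy1, of magnesium chelatase, had 7.29 and 7.43 against 2.50 and 2.51, and les22, uroporphyrinogen decarboxylase, 10.07 and 10.37 against 6.01 and 6.37.

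**Figure D1:**
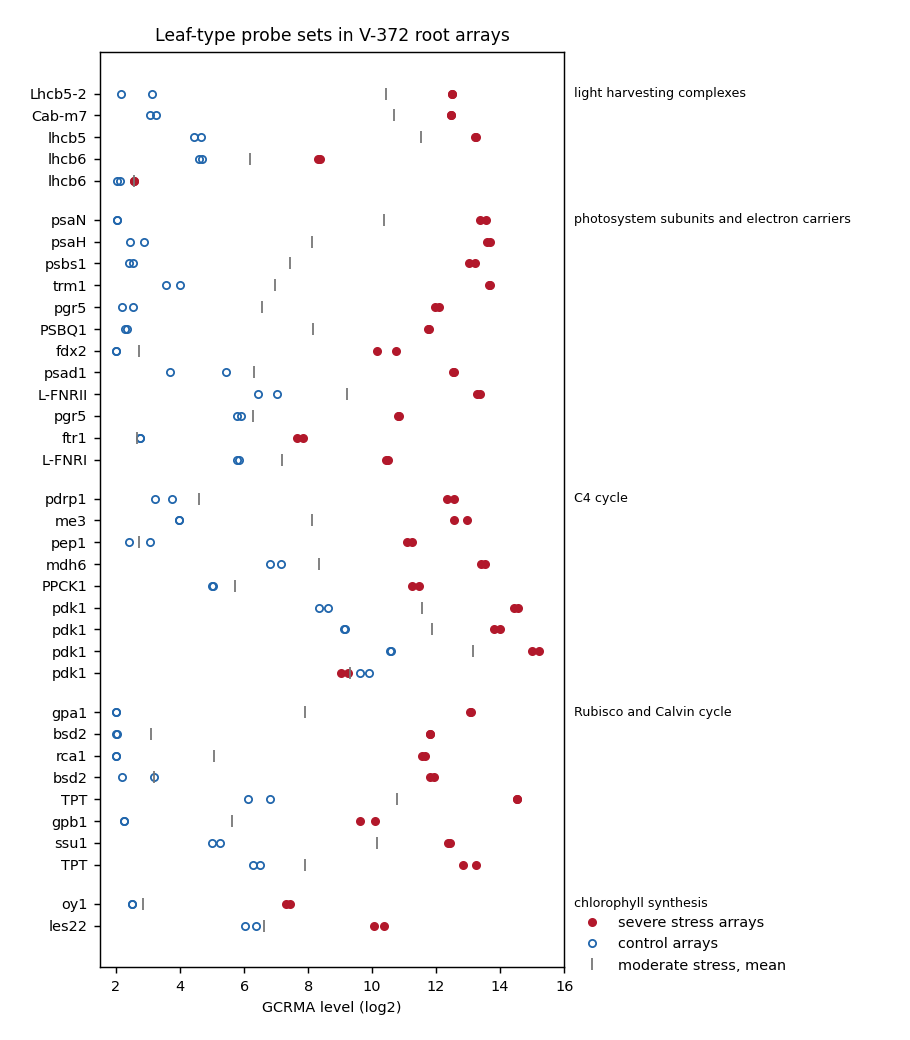
Log2 GCRMA level of the 36 leaf-type probe sets above the floor in either group, one row each, on the V-372 severe stress arrays (filled points) and control arrays (open points), with the mean of the moderate stress arrays as a bar. The 34 that rose, all of them called up, lie to the right of their control points, and only the lowest pdk1 row has its severe stress points on the left.

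The leaf-type levels were not confined to severe stress. The log2 of their summed level in V-372 was 12.04 and 12.04 on the control arrays, 14.90 and 14.84 at moderate stress, 17.98 and 17.97 at severe stress and 14.49 and 14.45 on recovery. In the direct test of severe against moderate stress, which does not use the control arrays, 34 of the 40 probe sets were higher at severe stress and 0 lower, with a median difference of 4.17; over all probe sets 17.8% were higher and 28.2% lower. The members differed in how far they had come by day 32. ssu1 had a mean of 10.16 at moderate stress and lhcb5 of 11.54, and they were higher at severe stress by 2.25 ± 0.09 and 1.70 ± 0.28. By contrast pep1, at 2.70 in moderate stress, was higher at severe stress by 8.46 ± 0.29, bsd2 by 8.71 ± 0.24 and pdrp1 by 7.85 ± 0.50. ftr1, PPCK1 and oy1 likewise had moderate stress means within 1 log2 unit of their control means.

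Markers of root tissue were lower on the severe stress arrays by their median, and some of the most abundant stayed at high levels. Of the 27 probe sets in the root marker list, from 13 genes, 3 rose, 14 fell and 10 did not pass the test, with a median change of -0.69. Their median level was 2.79 and 2.75 on the severe stress arrays, against 6.73 and 7.01 on the control arrays, and 9 of the 27 lay at the floor on each severe stress array, against 6 and 7 on the control arrays. The log2 of their summed level, which the few most abundant members carry, was 15.31 and 15.36 on the severe stress arrays, against 16.01 and 15.95 on the control arrays. Lower levels were not confined to severe stress. On the V-372 recovery arrays the median level was 3.99 and 4.11 and the log2 of the summed level 15.23 and 15.23. There 11 and 10 of the 27 lay at the floor. Median levels were 5.87 and 6.06 at V-372 moderate stress, and 4.00 and 3.89 on the HKI1105 control arrays. fdx3, the ferredoxin of non-green tissue, had 14.15 and 14.18 on the severe stress arrays, against 14.45 and 14.38 on the control arrays, and tip2b, an aquaporin of the vacuole membrane, 11.33 and 11.29 against 12.49 and 12.47. grp3, a glycine-rich wall protein of the root cap and root surface, had 11.45 and 11.61 against 12.84 and 12.77. These 3 fell and remained above a level of 10. The largest rise in the list was that of nip2b, an aquaporin, with 8.93 and 8.92 against 4.77 and 4.53 (4.28 ± 0.20). zrp4, an O-methyltransferase first found in roots, had 2.79 and 2.33 against 6.49 and 7.29 and fell by 4.33 ± 0.25 (adjusted p = 6.00e-07). nas1, nicotianamine synthase, which makes a chelator of iron, was at the floor on the severe stress arrays, against 8.78 and 8.69 on the control arrays, and fell by 6.73 ± 0.02 (adjusted p = 2.82e-15). This probe set had means of 2.01 in every other group of both lines, the HKI1105 control included. Its fall therefore rests on the V-372 control arrays alone. A second probe set of nas1 fell in the same way, and its other 2 and that of nas2 lay at the floor in both groups. In the root lists that follow, the part of the leaf-type RNA in a rise, and of the lower root marker levels in a fall, was not tested.

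The genes of fermentation, the textbook response to lack of oxygen, were mostly no higher at severe stress than in the control. Of 9 probe sets 2 rose, 5 fell and 2 did not pass the test. Both that rose belong to pdc1, pyruvate decarboxylase: the stronger of them had 10.82 and 10.74 on the severe stress arrays, against 8.18 and 8.11 on the control arrays (2.64 ± 0.28, adjusted p = 3.80e-05), and the other 4.78 and 5.10 against 2.55 and 2.55. pdc3 had 10.58 and 10.73 against 12.10 and 11.95 and fell by 1.37 ± 0.11 (adjusted p = 5.65e-06). Of the 4 probe sets of pdc2, 2 fell by 0.71 ± 0.13 and 0.88 ± 0.16, which did not pass with only the 4 arrays in the fit (adjusted p = 0.0614 and 0.09), 1 lay at the floor in both groups and 1 had 2.01 and 2.01 against 2.23 and 2.01. adh2, alcohol dehydrogenase, had 8.42 and 8.28 against 9.37 and 9.52 and fell by 1.1 ± 0.09 (adjusted p = 9.10e-06). adh1, the main alcohol dehydrogenase of flooded maize seedlings, had 13.29 and 13.37 against 13.62 and 13.50, high in both groups, and fell by 0.23 ± 0.07 (adjusted p = 0.0244); without severe stress replicate 1 its adjusted p was 0.136, and without control replicate 1 0.161.

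Set against moderate stress, the fermentation list stood lower at severe stress. In that test 7 of the 9 probe sets were lower and 0 higher. pdc1 was 2.06 log2 units below its moderate stress mean of 12.84, and the stronger probe set of pdc2 fell by 5.36 below a mean of 12.71. adh1 differed by -1.05 ± 0.07 and pdc3 by -1.55 ± 0.11. At severe stress pdc1 therefore lay between its control and its moderate stress levels, and pdc2 below both.

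Glycolysis, which feeds fermentation, had 3 of 15 probe sets higher (20%) and 6 lower (40%), near the shares over all probe sets. pfk1, named for a phosphofructokinase, had 8.88 and 9.40 on the severe stress arrays, against 5.51 and 5.72 on the control arrays (3.52 ± 0.23, adjusted p = 1.34e-06), and gpn1, a non-phosphorylating glyceraldehyde-3-phosphate dehydrogenase, 8.96 and 9.26 against 6.68 and 6.69. The cytosolic dehydrogenases gpc2, gpc3 and gpc4 and the enolases eno1 and eno2 changed by 0.17 to -1.22. The lowest of these was the probe set of eno1 that had 9.96 and 10.31 against 11.44 and 11.27 (-1.22 ± 0.21, adjusted p = 9.62e-04), while the abundant eno1 probe set had 14.62 and 14.62 against 14.89 and 14.89.

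Sucrose is split for glycolysis by sucrose synthases and invertases. Of 12 probe sets in that list 2 rose (16.7%), 5 fell (41.7%) and 5 did not pass the test, which is near the shares over all probe sets. sus2, a sucrose synthase, had 8.64 and 8.94 on the severe stress arrays, against 5.12 and 5.11 on the control arrays (3.67 ± 0.18, adjusted p = 1.85e-07). The 2 other sucrose synthases stood at high levels: sus1 had 13.09 and 13.25 against 13.74 and 13.75, and fell by 0.58 ± 0.04, and sh1 11.06 and 11.63 against 10.69 and 10.79 (0.60 ± 0.15, adjusted p = 0.00942), a rise that did not pass the threshold without control replicate 1 (adjusted p = 0.056). The invertases fell: ivr2, the vacuolar form, had 9.09 and 9.03 against 11.23 and 11.09 and fell by 2.10 ± 0.19 (adjusted p = 1.66e-05), and incw1, of the cell wall, had 7.19 and 7.48 against 8.73 and 8.55 and fell by 1.30 ± 0.10 (adjusted p = 3.46e-06). The fructokinases frk1 and frk2 fell by 0.77 ± 0.09 and 1.1 ± 0.07. The probe sets of the wall invertases mn1 and incw3, and 2 of sh1, lay at the floor in both groups.

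In the list of starch and sugar storage 9 of 25 probe sets rose (36%), 2 fell (8%) and 14 did not pass the test. sps1, sucrose phosphate synthase, had 9.04 and 9.10 on the severe stress arrays, against 2.27 and 2.27 on the control arrays (6.81 ± 0.20, adjusted p = 6.56e-09). The galactosidase gene AGA1 had 7.10 and 7.14 against 2.78 and 2.78. sbe1, a starch branching enzyme, rose by 3.27 ± 0.11. Genes of ADP-glucose pyrophosphorylase, which makes the sugar donor for starch, divided. GLG1 had 11.85 and 11.84 against 7.99 and 8.08 and bt2 rose by 1.89 ± 0.11, whereas Agp2 and AGPLS3 fell. Agp2 had 4.61 and 3.96 against 6.36 and 6.62 (-2.21 ± 0.25, adjusted p = 6.56e-05). The endosperm genes wx1, du1 and bt1 were at the floor in both groups. sps1 had a mean of 2.01 at moderate stress and 2.01 on recovery, both at the floor.

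Both haemoglobin genes fell. Plant haemoglobins bind oxygen and remove nitric oxide, and some of them are known to be induced by low oxygen. GLB1 had 4.29 and 4.74 on the severe stress arrays, against 9.79 and 9.27 on the control arrays, and fell by 5.02 ± 0.19 (adjusted p = 3.47e-08). Hb2 had 2.06 and 2.06, close to the floor, against 6.67 and 6.79, and fell by 4.67 ± 0.15 (adjusted p = 1.30e-08). At moderate stress GLB1 had stood at 10.97, 6.45 log2 units above severe stress (adjusted p = 9.55e-09).

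The mitochondrial list had 8 of 10 probe sets lower and 0 higher, with a median of -0.69. The alternative oxidases, which pass electrons to oxygen without making ATP, were the lowest: aox3 had 3.56 and 2.74 on the severe stress arrays, against 6.35 and 6.51 on the control arrays (-3.28 ± 0.28, adjusted p = 8.41e-06), and aox2 7.48 and 7.50 against 9.08 and 9.12 (-1.61 ± 0.18, adjusted p = 5.73e-05). The porins vdac1a, vdac1b and vdac2 of the outer membrane fell by 0.53 ± 0.16 to 1.06 ± 0.20.

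**Figure D2:**
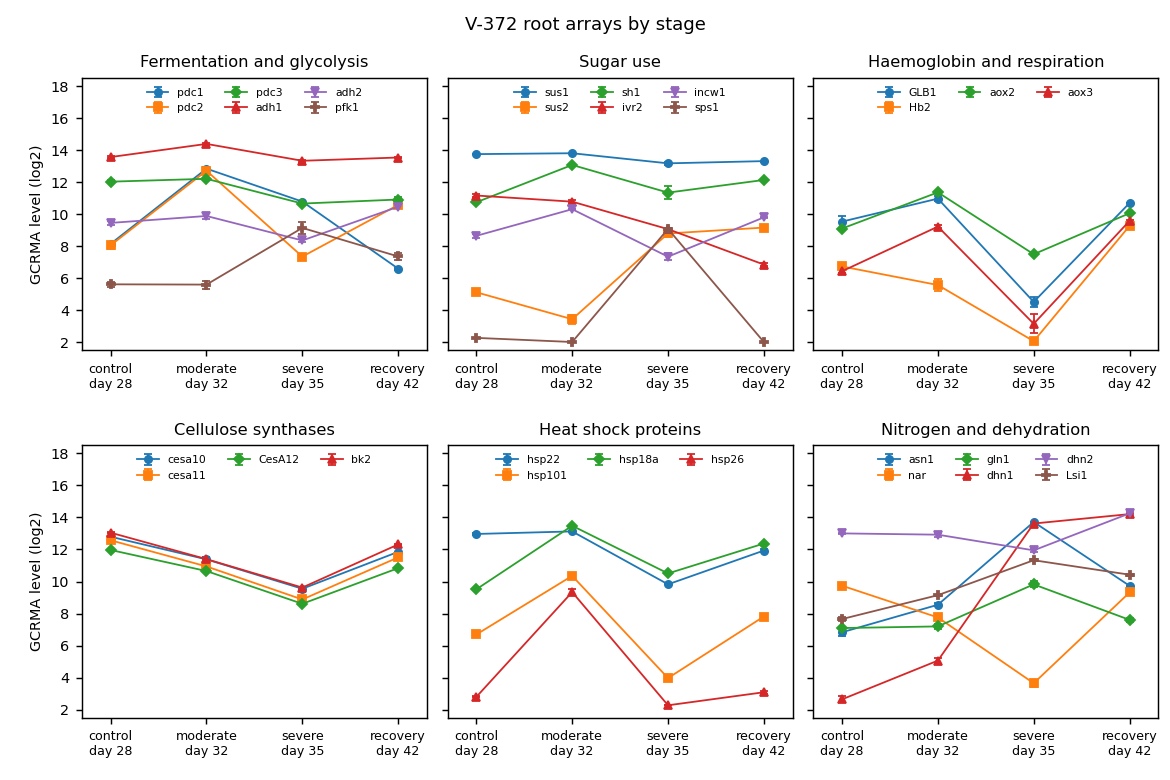
Mean log2 GCRMA level of named genes at the 4 stages of V-372 (bars, SD of the 2 arrays; for genes with several probe sets, the one with the highest mean). pdc1, pdc2, hsp101 and hsp26 peak at moderate stress, GLB1, Hb2 and aox3 are lowest at severe stress, and the cellulose genes are lower at severe stress than in the control. cesa11 had a mean of 12.57 in the control, 10.94 at moderate stress and 8.88 at severe stress.

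The 2 genes of the last step of ethylene synthesis did not rise: acco20, an ACC oxidase, had 5.76 and 5.79 on the severe stress arrays, against 6.86 and 7.02 on the control arrays, and fell by 1.17 ± 0.24 (adjusted p = 0.00303), and ACO31 had 5.95 and 5.96 against 5.99 and 6.02 (adjusted p = 0.86). Among 7 probe sets of ethylene receptors and AP2/ERF factors, 2 rose and 5 did not pass the test. ERF1 rose by 1.48 ± 0.07 (adjusted p = 2.13e-07) to 11.52 and 11.40 on the severe stress arrays, below its moderate stress mean of 13.78, and dbf1 rose by 0.31 ± 0.07. The ethylene receptor etr2 had 9.45 and 9.45 against 9.40 and 9.41 (adjusted p = 0.936).

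The study followed 4 probe sets with quantitative PCR, and the oligos it designed for them are the sequences at hand for transcripts of this comparison. They are printed here because the 4 transcripts lie on both sides of the change; no letter is set apart by capitals, since no part of a primer is singled out.
ERF-like1 forward: gtggagcttcgaggactacta
ERF-like1 reverse: cgcgagccacagatacaaa
SBE4 forward: atcctcctcaccaactcaaac
SBE4 reverse: acctccaactccaatcacttc
BXL4 forward: ctaccaagtaccaacgtgaagg
BXL4 reverse: cacctgccgaaccaattct
IAA3 forward: ctgcaagaagctgaggatca
IAA3 reverse: tgcaggtcctctcgatagat
On the arrays ERF-like1, an ethylene-responsive factor, had 9.11 and 8.87 at severe stress, against 7.34 and 7.33 in the control (1.65 ± 0.32, adjusted p = 0.00222). SBE4, named for a starch branching enzyme, had 11.52 and 11.36 against 7.69 and 7.68 (3.75 ± 0.06, adjusted p = 2.09e-10). BXL4 and IAA3 went the other way. BXL4 had 7.83 and 7.92 against 9.06 and 9.02 and fell by 1.17 ± 0.19 (adjusted p = 8.04e-04). IAA3, an auxin response repressor by its name, had 6.38 and 7.07 against 8.69 and 8.82 and fell by 2.03 ± 0.27 (adjusted p = 1.74e-04). The PCR values were not analysed here.

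Genes of wall synthesis fell broadly. Of 17 probe sets of cellulose synthesis 16 fell and 1 did not pass the test, with a median of -2.0 beside 0 over all probe sets and -0.03 over the named ones. The 3 cellulose synthases of the secondary wall and bk2 were the lowest. cesa11 had 8.76 and 8.99 on the severe stress arrays, against 12.58 and 12.57 on the control arrays (13.0-fold lower, -3.70 ± 0.12, adjusted p = 1.36e-08), and cesa10 9.53 and 9.56 against 12.78 and 12.81. CesA12 fell by 3.36 ± 0.04. bk2, the brittle stalk gene that acts in the placement of cellulose, had 9.60 and 9.65 against 13.08 and 13.02 (10.8-fold lower). Among synthases of the primary wall cesa7 fell by 2.10 ± 0.09, cesa8 by 1.73 ± 0.10, cesa5 by 0.88 ± 0.11 and cesa3 by 0.66 ± 0.15. The probe set of cesa11 is one that can bind several members of the family.

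All 6 probe sets of the phenylpropanoid and lignin list fell, with a median of -2.32. The first enzyme of the path, PAL1, fell by 1.20 ± 0.06, the ligase 4CL had 7.43 and 7.95 on the severe stress arrays, against 11.54 and 11.41 on the control arrays, the reductase cncr1 fell by 2.09 ± 0.08, and CAD2, the alcohol dehydrogenase that makes the lignin monomers, had 11.08 and 11.07 against 13.60 and 13.66. Of 4 class III peroxidases 2 fell: pox2 had 4.90 and 4.95 against 8.80 and 8.51 (-3.73 ± 0.11, adjusted p = 7.30e-09), and PER42 fell by 2.43 ± 0.19. Expansins, which loosen walls, were mixed, with 5 of 17 probe sets higher (29.4%) and 3 lower (17.6%). expB7 had 9.75 and 9.60 against 4.46 and 4.47 (5.20 ± 0.35, adjusted p = 1.85e-06) and expB4 4.31 and 4.41 against 8.63 and 8.50 (-4.20 ± 0.12, adjusted p = 7.25e-09). xet1, a xyloglucan endotransglycosylase known from flooded maize roots, had 12.29 and 12.12 against 8.27 and 8.37 (3.89 ± 0.07, adjusted p = 3.51e-10); at moderate stress its mean was 13.58.

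The cytoskeleton fell with the wall. Of 31 probe sets of tubulins and actin-binding proteins 23 fell, 1 rose and 7 did not pass the test, with a median of -0.99. The 1 that rose, of the profilin PRO1, had 2.03 and 2.02 against 2.01 and 2.01, at the floor, where levels vary so little that minute changes pass the test. Its adjusted p was 0.0133, and without control replicate 1 or 2 it was 0.0526 or 0.0523. tub3 had 10.17 and 10.09 on the severe stress arrays, against 13.25 and 13.14 on the control arrays (-3.06 ± 0.10, adjusted p = 1.1e-08), and tub4 11.83 and 11.83 against 13.88 and 13.88. The ROP GTPases, switches of polar growth, had 5 of 8 lower, led by rop5 with 6.44 and 6.37 against 9.95 and 10.21 (-3.68 ± 0.09, adjusted p = 2.55e-09). The list of DNA replication, histones and the cell cycle lay near the shares over all probe sets, with 11 of 30 lower (36.7%) and 5 higher (16.7%). orc1 and orc2, of the complex that marks replication origins, fell by 0.64 ± 0.14 and 0.98 ± 0.24, and cdc2, the kinase that drives division, by 0.60 ± 0.10 and 0.90 ± 0.10 in its 2 probe sets. The 5 that rose were probe sets of the histone genes his1, his1a and hon101. hon101 had 10.87 and 11.02 against 9.25 and 9.20 (1.72 ± 0.08, adjusted p = 2.16e-07), and the probe set of his1 that changed most rose by 1.64 ± 0.23. Ribosomal proteins, likewise near those shares, had 4 of 26 higher (15.4%) and 7 lower (26.9%) around a median of -0.12, and rpl29 had the largest change with 12.77 and 12.77 against 6.71 and 6.44. The annotation does not give whether rpl29 acts in the plastid or the cytosol.

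**Figure D3:**
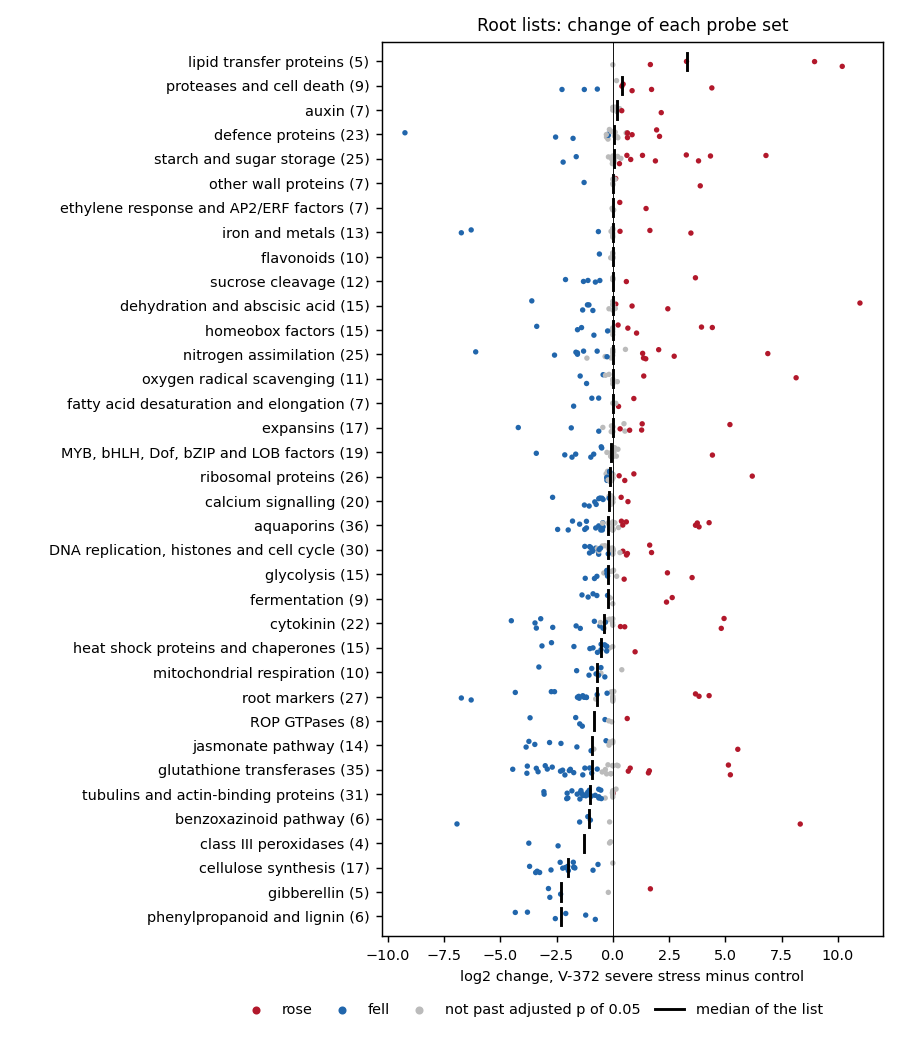
Log2 change of each probe set, V-372 severe stress minus control, in the root lists with at least 3 probe sets (number in brackets), ordered by median (black bar). Phenylpropanoid, gibberellin and cellulose lists have the lowest medians, and lipid transfer proteins, from only 2 genes, the highest at 3.27.

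In nitrogen metabolism 6 of 25 probe sets were higher (24%) and 8 lower (32%), near the shares over all probe sets. asn1, asparagine synthetase, had 13.70 and 13.74 on the severe stress arrays, against 6.98 and 6.68 on the control arrays (6.89 ± 0.18, adjusted p = 4.18e-09), while its other probe set had 5.17 and 5.18 against 4.41 and 4.82 (adjusted p = 0.334). The gene listed as nar had 3.79 and 3.50 against 9.77 and 9.70 in one probe set (-6.09 ± 0.15, adjusted p = 2.01e-09) and lay at the floor in the other. The ferredoxin gene FDX6 fell by 1.64 ± 0.03, fnr1, the ferredoxin reductase of roots, by 1.57 ± 0.10 and 2.59 ± 0.33 in the 2 probe sets above the floor, and gdh1, glutamate dehydrogenase, by 1.30 ± 0.13. The glutamine synthetases divided: gln1 rose by 2.73 ± 0.12, GLN6 by 1.46 ± 0.15, and gln5 fell by 1.57 ± 0.08. Among metal genes fer1, the iron store ferritin, rose by 1.65 ± 0.07 and mtl2, a metallothionein-like gene, had 4.93 and 6.04 against 2.02 and 2.02 (3.47 ± 0.63, adjusted p = 0.00136). The 2 severe stress arrays differ by more than 1 log2 unit there, and its other probe set lay at the floor.

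Dehydration genes included a large rise and several falls, in shares near those over all probe sets. dhn1, a dehydrin, had the largest rise of any named gene outside the leaf-type lists, at 13.58 and 13.66 on the severe stress arrays, against 2.51 and 2.77 on the control arrays (10.98 ± 0.44, adjusted p = 5.75e-08). vp14, which makes the precursor of abscisic acid, had 6.71 and 6.36 against 4.39 and 3.79 (2.44 ± 0.24, adjusted p = 2.40e-05). In the other direction the 3 probe sets of dhn2 fell by 1.06 ± 0.07 to 1.34 ± 0.07, and esp5 had 2.72 and 2.72 against 6.31 and 6.33 (-3.60 ± 0.35, adjusted p = 2.46e-05). Of 15 probe sets 4 rose (26.7%) and 5 fell (33.3%). The recovery arrays held dhn1 at 14.21.

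Heat shock proteins and chaperones fell in 12 of 15 probe sets and rose in 1. hsp22, a mitochondrial small heat shock protein, had 9.82 and 9.82 on the severe stress arrays, against 13.01 and 12.93 on the control arrays (-3.15 ± 0.06, adjusted p = 7.08e-10), hsp101 4.05 and 3.89 against 6.69 and 6.69, and hsp18f 8.49 and 8.68 against 10.33 and 10.29. The one that rose, hsp18a, had 10.54 and 10.47 against 9.49 and 9.53 (0.99 ± 0.11, adjusted p = 7.46e-05). Against moderate stress 14 of the 15 were lower and 1 higher: hsp26 was 7.07 and hsp101 6.39 log2 units below day 32.

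Genes of the jasmonate path mostly fell. Of 14 probe sets 8 fell (57.1%), 1 rose (7.14%) and 5 did not pass the test. The lipoxygenases, which oxidise the fatty acid precursor, changed most among the falls. lox1 had 7.16 and 6.95 on the severe stress arrays, against 10.92 and 10.89 on the control arrays (-3.85 ± 0.08, adjusted p = 6.11e-10), and lox3 7.69 and 7.80 against 11.27 and 11.15. aos1, allene oxide synthase, had 7.78 and 8.46 against 10.46 and 10.38, and opr1, an oxophytodienoate reductase, 2.02 and 2.01, at the floor, against 4.86 and 4.79. The member that rose was hpl1, hydroperoxide lyase, which draws the same substrate toward leaf volatiles: 8.87 and 9.21 against 3.47 and 3.50 (5.55 ± 0.15, adjusted p = 4.74e-09). Among 23 probe sets of defence proteins 6 rose (26.1%) and 5 fell (21.7%). umi11, annotated as a cyclotide, had 2.84 and 2.41 against 11.79 and 11.92 (-9.23 ± 0.20, adjusted p = 1.16e-09), the largest fall of any named gene, wip1, a wound-induced protease inhibitor, had 6.16 and 5.91 against 8.62 and 8.53, and stc1, a sesquiterpene cyclase, 4.09 and 4.07 against 2.01 and 2.01 (2.08 ± 0.06, adjusted p = 6.22e-09).

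The gene for the first enzyme of the benzoxazinoids, the indole-derived defence compounds of maize, fell steeply. bx1 had 3.99 and 3.81 on the severe stress arrays, against 10.97 and 10.68 on the control arrays (-6.92 ± 0.17, adjusted p = 2.71e-09). Of the 6 probe sets in this list 4 fell, including both of bx6 by 1.11 ± 0.19 and 1.47 ± 0.09. The glucosidases that release the toxins went apart, with glu1 at 13.40 and 13.36 against 14.37 and 14.38 and glu2 at 10.77 and 10.42 against 2.29 and 2.24 (8.33 ± 0.18, adjusted p = 9.46e-10). Of the 35 probe sets for glutathione transferases, detoxifying enzymes, 19 fell (54.3%) and 6 rose (17.1%), with a median of -0.94. gst31 fell in all 4 of its probe sets, by 3.0 ± 0.09 to 4.45 ± 0.18, and gst18 had 2.20 and 2.01 against 6.14 and 5.67. GST39 had 8.85 and 8.83 against 3.56 and 3.68 (5.22 ± 0.13, adjusted p = 2.51e-09) and gst19 12.48 and 12.39 against 7.33 and 7.27. Among scavengers of oxygen radicals cat2, a catalase, had 10.07 and 10.24 against 2.01 and 2.01, at the floor (8.14 ± 0.40, adjusted p = 2.25e-07). CAT3, another catalase, fell by 1.17 ± 0.11 and Sod4A, a cytosolic superoxide dismutase, by 1.45 ± 0.04.

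In the cytokinin list 11 of 22 probe sets fell (50%) and 4 rose (18.2%). The response regulators, which cytokinin switches on, made up 7 of the falls. crr1 had 2.82 and 2.81 on the severe stress arrays, against 7.34 and 7.31 on the control arrays (-4.51 ± 0.20, adjusted p = 9.81e-08), RR5 5.98 and 6.20 against 9.59 and 9.50, RR6 6.56 and 6.25 against 9.63 and 9.58 and RR7 4.32 and 4.78 against 8.19 and 7.70. The cytokinin oxidases, which break the hormone down, rose in 2 genes: cko3 had 9.39 and 9.43 against 4.69 and 4.24 (4.94 ± 0.17, adjusted p = 1.76e-08) and cko2 10.71 and 10.70 against 5.94 and 5.83, while cko1 fell by 0.82 ± 0.24. In the gibberellin list 3 of 5 fell and 1 rose. CPPS2 and an1, which are named for the first cyclisation step, fell by 2.86 ± 0.07 and 2.80 ± 0.22, and GA20 by 2.32 ± 0.22. eks1, which acts after CPPS2 and an1, rose by 1.67 ± 0.14, with 3.97 and 3.40 against 2.01 and 2.02, at the floor. abp1, an auxin-binding protein, rose by 2.15 ± 0.14. Calcium genes fell in 10 of 20 probe sets (50%) and rose in 2 (10%). CCamK, a calcium and calmodulin-dependent kinase, had 5.50 and 5.50 against 8.13 and 8.21 (-2.67 ± 0.11, adjusted p = 5.34e-08).

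Water and solute channels of the aquaporin family had 16 of 36 probe sets lower (44.4%) and 7 higher (19.4%). Over all probe sets 31.9% were lower and 17.6% higher. pip2b, of the plasma membrane, had 6.71 and 6.57 on the severe stress arrays, against 9.12 and 9.06 on the control arrays (-2.45 ± 0.11, adjusted p = 1.06e-07). The highest rises were Lsi1 and nip2b, of the subfamily that carries silicic acid, and tip4a of the vacuole. nip2b had 8.93 and 8.92 against 4.77 and 4.53 (4.28 ± 0.20, adjusted p = 1.50e-07), and Lsi1 10.58 and 10.73 against 6.81 and 6.83. Lipid transfer proteins, small carriers that are common in the epidermis of aerial organs, rose in 4 of 5 probe sets. The 5 come from only 2 genes, and their median level in the control was 2.01, at the floor. PLTP had 12.16 and 12.24 against 2.01 and 2.01 (10.19 ± 0.32, adjusted p = 1.18e-08) and plt2 10.91 and 11.03 against 2.01 and 2.01 (8.96 ± 0.20, adjusted p = 1.31e-09). Of 15 homeobox factors 5 rose (33.3%) and 5 fell (33.3%). ocl5 and ocl3, of a family expressed in the outer cell layer, had 6.40 and 6.46 against 2.01 and 2.01 and 6.15 and 6.18 against 2.24 and 2.21, and lg3, a knotted-like factor, 6.27 and 5.88 against 9.47 and 9.44. GBF1, a factor of the bZIP class, rose by 4.43 ± 0.10, and obf3.2 of the same class fell by 3.40 ± 0.17.

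Among proteases and genes of cell death 5 of 9 probe sets rose (55.6%) and 3 fell (33.3%). lls1, which degrades a breakdown product of chlorophyll, had 10.88 and 10.89 on the severe stress arrays, against 6.44 and 6.54 on the control arrays (4.40 ± 0.12, adjusted p = 3.76e-09), and the cysteine protease ccp1 rose by 1.72 ± 0.09. Both vacuolar processing enzymes fell, see2b by 2.26 ± 0.11 and see2a by 1.27 ± 0.12. see1, a senescence-induced protease, rose by 0.46 ± 0.09 and 0.40 ± 0.08 in its 2 probe sets.

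Further genes were among the 12 largest named rises outside the leaf-type lists. sig1, a sigma factor of the plastid RNA polymerase, had 12.15 and 12.07 on the severe stress arrays, against 2.14 and 2.54 on the control arrays (9.77 ± 0.17, adjusted p = 3.03e-10). The gene listed as por had 11.80 and 11.79 against 3.21 and 3.21 (8.58 ± 0.14), and 5 genes without a descriptive name, LOC100125656, LOC541622, LOC100101531, LOC541692 and LOC541947, rose by 8.21 to 10.03. Of these 12, 6 had moderate stress means within 1 log2 unit of the floor: cat2 (2.01), glu2 (2.34), plt2 (2.01), LOC541622 (2.01), LOC100125656 (2.29) and LOC541947 (2.87). At moderate stress sig1, por, LOC100101531 and LOC541692 already had means of 5.47 to 7.54. By that stage 26 of the 40 leaf-type probe sets had risen over the control. The part of the leaf-type RNA in the rises of these 12 was not tested. Among the 12 largest falls not yet given, irl1, an isoflavone reductase-like gene, had 4.84 and 4.53 against 10.31 and 10.13 (-5.54 ± 0.15, adjusted p = 4.97e-09), and phyS11 4.92 and 4.77 against 9.22 and 9.34. Of the probe sets with no gene name at all, the one that rose most had 14.42 and 14.39 against 2.76 and 2.01, and the one that fell most 2.80 and 2.71 against 12.74 and 12.66.

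The direct test of severe against moderate stress in V-372, which asks what day 35 held that day 32 did not, called 926 probe sets up (5.26%) and 453 down (2.57%). In that test 14 of 17 cellulose synthesis probe sets were lower. By moderate stress 15 of these 17 had already fallen against the control, with a median change of -0.82. bk2 was 1.77 log2 units below moderate stress and cesa11 2.06. asn1 was higher by 5.17 ± 0.18 and dhn1 by 8.56 ± 0.44, and nas1 was at the floor at both stages.

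The comparison with HKI1105 asks where the response of V-372 to severe stress differs from that of the tolerant line. The difference of the 2 changes, V-372 minus HKI1105, was the interaction term of the model. In limma, 1303 probe sets were called up (7.39%) and 1244 down (7.06%), and 3961 were higher (22.5%) and 5731 lower (32.5%) at an adjusted p under 0.05. The HKI1105 control arrays enter this test and stand apart: of the root markers, tip2b had a mean of 4.54 there, against 12.48 on the V-372 control arrays, and grp3 2.94, against 12.81. The median level of the HKI1105 control arrays was 6.91 and 6.98, and with each array centred on its median 8356 probe sets were higher and 5259 lower. The part of these arrays in the interaction was not tested, and HKI1105 levels are therefore given with several of the changes below. Of the leaf-type probe sets 34 of 40 had a larger change in V-372 and 3 a smaller one, with a median difference of 5.79. The log2 of their summed level was 15.36 and 15.42 on the HKI1105 severe stress arrays, against 12.89 and 12.81 on the HKI1105 control arrays. In HKI1105 ssu1 had a mean of 11.04 at severe stress and 6.09 in the control, and pep1 2.01 and 8.04.

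Among root genes the change of cellulose synthesis genes was lower in V-372 in 15 of 17 probe sets and higher in 0. cesa11 had a mean of 10.30 at severe stress and 9.36 in the control of HKI1105, and the V-372 change was lower than that of HKI1105 by 4.64. All 6 phenylpropanoid probe sets had the lower change in V-372, 4CL by 3.70 with HKI1105 means of 10.83 at severe stress and 10.92 in the control. GLB1 kept a mean of 10.24 at severe stress in HKI1105, against 9.94 in its control, and its change differed by -5.32 ± 0.26 (adjusted p = 2.76e-07), whereas that of Hb2 differed by -0.03 ± 0.21 (adjusted p = 1). In HKI1105 bx1 had means of 6.95 at severe stress and 7.68 in the control, lox3 of 12.21 and 12.50, and cat2 was at the floor in both. Their changes differed between the lines by -6.20 ± 0.25, -3.18 ± 0.08 and 8.16 ± 0.57 (adjusted p = 6.84e-08, 3.39e-09 and 2.44e-06). umi11 and nar fell in both lines, and the changes differed between the lines by 0.18 ± 0.29 (adjusted p = 0.702) and 0.69 ± 0.21 (adjusted p = 0.0188).

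**Figure D4:**
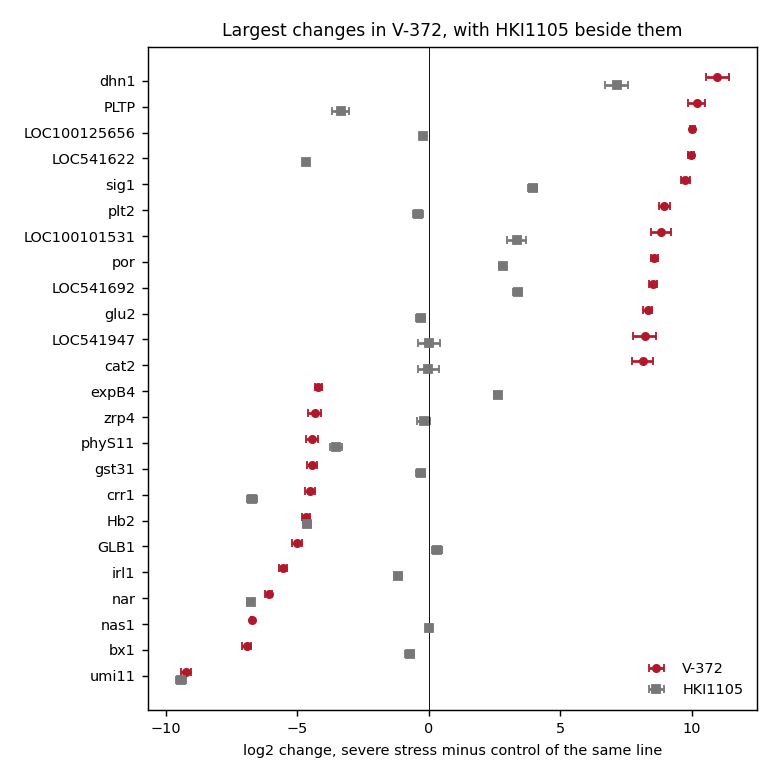
Log2 change, severe stress minus the control of the same line, for the 12 largest named rises and 12 largest named falls in V-372 outside the leaf-type lists (circles), with the change of the same probe set in HKI1105 (squares); bars are standard errors. The points of umi11 and Hb2 lie close together in the 2 lines, and those of plt2, glu2, cat2, nas1 and GLB1 lie near 0 in HKI1105.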

How the data were processed

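RNA from roots of 2 maize lines was hybridised to 16 Affymetrix GeneChip Maize Genome arrays. The authors deposited log2 GCRMA values. The version of GCRMA is not given in the sources used here. Each array's column was taken as deposited, with no further scaling, and the 113 control probe sets were left out. The number of arrays limits the precision. Groups follow the sample labels. In R 4.3.3, limma 3.58.1 fitted 1 mean per group over all 16 arrays with empirical Bayes moderation, and contrasts gave severe stress minus control, severe minus moderate stress, and the difference between the lines. Adjusted p-values follow Benjamini and Hochberg over 17621 probe sets. The code was tested on simulated data. No filter on low values was used. Alternatives were another scaling, filter, prior, fold or p threshold, the 4 arrays alone, a replicate block and leaving out each array.

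Gene names come from a platform annotation of 2007 that lists 1453 probe sets, of which 1377 matched RefSeq. The 1 with several genes was not named. The named genes are the 12 largest rises and 12 largest falls outside the leaf-type lists, the 8 largest leaf-type rises, the top rise and fall of each root list of at least 3 probe sets, all members of the fermentation, sucrose cleavage, haemoglobin and ethylene synthesis lists, and 2 unnamed probe sets per direction. Other list members, and the 4 probe sets with primers, were named after their values were seen. The members and lists were chosen with earlier results of these data known. Primer sequences are those the study designed. Promoter and protein sequences were not analysed here.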

Additional observations from a re-analysis of the deposited data

Results flagged for a closer look

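Of the 105 named probe sets, 67 differed between V-372 and HKI1105 in the interaction test (limma, p of 0.001 or less and 5 times or more). The change from control to severe stress was higher in V-372 in 39 of them and lower in 28. Over all probe sets 7.39% were called up and 7.06% down in this test. Many of the 105 were picked for a large change in V-372, which is part of the interaction, so a larger share was built in. The HKI1105 control arrays, which stand apart from the others, enter each of these values, and their part was not tested. Values are differences of log2 changes, V-372 minus HKI1105. A difference can come from the change in either line.

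Among leaf-type genes the difference was 6.52 for psaN, 8.06 for psaH, 8.90 for psbs1, 9.38 for trm1 and 8.54 for pgr5 of the photosystem list. It was 6.39 for Lhcb5-2, 7.76 for gpa1 and 8.2 for bsd2.

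Among the largest rises outside the leaf-type lists it was 13.54 for PLTP, 9.37 for plt2, 8.63 for glu2, 8.16 for cat2, 5.8 for sig1 and 3.83 for dhn1. In HKI1105 dhn1 and sig1 also rose, by 7.15 and 3.96, and PLTP fell by 3.35 from a control mean of 5.36. The changes of plt2, glu2 and cat2 did not pass the test in HKI1105. The genes without a descriptive name had 14.66 for LOC541622, 10.24 for LOC100125656, 8.21 for LOC541947, 5.50 for LOC100101531 and 5.16 for LOC541692, and por had 5.77. LOC541622 fell in HKI1105 by 4.68, from a control mean of 6.69. In the same direction rpl29 differed by 3.90, nip2b by 4.69, asn1 by 5.94, mtl2 by 5.10, GST39 by 4.64 and cko3 by 6.91.

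In sugar use and fermentation the change was higher in V-372 for sps1, by 10.97, for pfk1, by 2.87, and for the weaker probe set of pdc1, by 2.74, whereas the stronger one differed by -2.20. It was lower in V-372 for pdc3 (-3.85), adh2 (-2.70), eno1 (-2.83), ivr2 (-5.72), frk1 (-2.60) and Agp2 (-5.92). Of the genes of hormones and regulators, acco20 differed by 5.48, hpl1 by 3.44, abp1 by 2.79, GBF1 by 3.22 and ocl5 by 4.42. These changes were all higher in V-372, as were those of hsp18a at 6.20, the plastid desaturase gene FAD8 at 5.23 and lls1 at 2.94. acco20 fell in both lines, by 1.17 in V-372 and by 6.65 in HKI1105, from a control mean of 11.05 there. hsp18a and FAD8 fell in HKI1105 by 5.21 and 4.29, and rose in V-372 by 0.99 and 0.94. The change was lower in V-372 for lox1 (-7.37), CPPS2 (-5.39), lg3 (-4.51), obf3.2 (-4.0), CCamK (-2.44), esp5 (-4.85) and fae1 (-6.41).

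The remaining named genes had the lower change in V-372. They were grp3 (-9.50), expB4 (-6.82), cesa11 (-4.64), tub3 (-4.26), pip2b (-2.83) and pox2 (-3.10) of walls, cytoskeleton and channels. Also lower were nas1 (-6.72), bx1 (-6.20), GLB1 (-5.32), irl1 (-4.38), gst31 (-4.14), zrp4 (-4.15) and aox3 (-2.33). grp3 changed by -1.28 in V-372 and by 8.23 in HKI1105, from a control mean of 2.94 there. For nas1 the HKI1105 means at severe stress and in the control were both 2.01, at the floor. Of the probe sets without a gene name, the 2 that rose most differed by 8.17 and 6.99, and the 2 that fell most by -9.81 and -4.80.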

How the results depend on the processing

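Only 2 arrays per group, whose status as biological or technical replicates the sources give differently, limit what the p-values cover, and stage cannot be told apart from plant age. A change from the floor depends on the floor, and probe sets can bind several members of a family.

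The counts for V-372 severe stress against control moved by over 1.5 times under few alternatives. The replicate numbers did not pair the samples: replicate deviations correlated at -0.02 between the severe stress and control groups, and between -0.11 and 0.09 over all pairs of V-372 groups. With a replicate block in the fit of only the 4 arrays, 301 probe sets were up, 106 down, 1865 higher and 2660 lower, and the block in the fit of all 16 arrays gave 1019 up and 562 down. At p of 0.001 or less and 2 times in place of 5 times, 1770 were up and 2206 down. Among probe sets over 1 log2 unit above the floor in both groups, an alternative chosen after seeing the data, 656 were up. With each array centred on its median, 8356 probe sets were higher in the comparison of the lines. Leaving out 1 array at a time gave 1013 to 1026 up, 562 to 569 down, 2806 to 2983 higher and 4963 to 5092 lower for severe stress against control, 913 to 941, 438 to 459, 2787 to 2933 and 4382 to 4580 against moderate stress, and 1255 to 1308, 1194 to 1236, 3646 to 4320 and 5357 to 5635 for the lines.

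Of the 105 named probe sets, 104 kept their direction and side of the threshold under median centring. The exception was PRO1, whose change of 0.017 at the floor turned to -0.0053. With quantile normalization adh1 no longer passed (adjusted p = 0.0612). With only the 4 arrays in the fit 6 no longer passed, and with the replicate block added to it 19. Leaving out control replicate 1 ended 6 of the calls, control replicate 2 or severe stress replicate 1 ended 4 each, and severe stress replicate 2 ended 2, all among adh1, sh1, MCM6, PRO1, fae1 and rpl39. Without the HKI1105 control arrays, chosen after seeing the data, all 105 stayed on their side for V-372 severe stress against control. Those arrays enter that test only through the shared estimate of the spread, so it could not show their part in the comparison of the lines.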

Other observations

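In V-372, of 19 probe sets of MYB, bHLH, Dof, bZIP and LOB factors, 8 fell (42.1%) and 1 rose (5.26%). myc7, a bHLH factor, fell by 1.65 ± 0.13 and MYB-IF35 by 1.81 ± 0.19. Of 10 probe sets for flavonoid genes only that of a2, anthocyanidin synthase, changed, with a fall of 0.59 ± 0.13, and those of the regulators c1, pl1 and P lay at the floor in both groups. Of 7 probe sets for fatty acid desaturation and elongation 2 rose and 3 fell: FAD8, a plastid desaturase, had 9.26 and 9.19 on the severe stress arrays, against 8.28 and 8.29 on the control arrays, gl8, of wax synthesis, fell by 0.93 ± 0.09, and fad7 fell by 0.63 ± 0.17.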
